A study of Mus musculus with 12 samples.

Results

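RNA of mouse CD4+ T cells stimulated through the T-cell receptor in the presence of FK506 was compared with RNA of the same kind of cells stimulated without it. A gene was included when at least 3 of the series' 12 libraries held reads of it, which was the case for 23585 of the 45777 genes in the table. All 12 libraries came, per the labels, from splenic CD4+ T cells of wild type Balb/c mice aged 7 weeks that were cultured with anti-CD3 antibody (0.5 ug/mL) over 3 days. The comparison used 6 of these libraries, 3 with anti-CD3 alone and 3 with anti-CD3 and FK506; the other 6 received L. acidophilus, a probiotic bacterium, or its combination with FK506, and shared the estimate of the spread between replicates. The labels gave no dose of FK506, and the study's methods state doses for other cultures of splenocytes and of alloreactive CD4+ T cells without naming the sequenced cultures. The study's methods name another strain and age of mouse than the labels do. They describe isolation with CD4-coated magnetic beads in the section on alloreactive T cells. For the sequenced cells they state only that CD4+ T cells were isolated. Nothing said whether libraries of a group came from separate animals or cultures, so p-values measure only the spread between these libraries.

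FK506, also called tacrolimus, dampens T-cell responses and is given to patients after transplantation. It binds the small protein FKBP12, and the complex inhibits calcineurin, the phosphatase that calcium switches on after T-cell receptor ligation. Calcineurin removes phosphates from the NFAT transcription factors, which then enter the nucleus and, together with AP-1 factors, switch on genes such as that of interleukin-2.

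Levels are given as FPKM (fragments per kilobase of transcript, scaled to the mapped fragments of a library), listed for replicates 1, 2 and 3 of a group. Changes are log2 fold changes of read counts in edgeR's quasi-likelihood test, FK506 minus anti-CD3 alone, with Benjamini-Hochberg adjustment over all genes tested, and a gene was called when its adjusted p was under 0.05 and it differed at least 2-fold. The 6 libraries held 46254697 to 64658165 counts, and 3 counts, taken as the floor of detection, covered counting error only. On the first principal component of all 12 libraries (66.3% of the variance) FK506 replicate 3, at 0.17, lay nearer to the anti-CD3 libraries (-66.1 to -48.0) than FK506 replicates 1 and 2 did (27.9 and 30.3). On that of the 6 libraries compared (71.1%) it was at 27.3, FK506 replicates 1 and 2 at 49.9 and 51.1 and the anti-CD3 libraries at -56.0 to -36.0. The libraries numbered 1 were the deepest of their groups. Of the CD4+ T-cell markers, Cd4 was at 139, 142 and 149 with anti-CD3 alone and 154, 147 and 131 with FK506, and Cd3e was at 136, 155 and 162 with anti-CD3 alone and 185, 208 and 173 with FK506; neither gene was called. Of the 12 genes of that marker list 4 had an adjusted p under 0.05 (4483 of all 23585 genes), which were Cd2 (-0.90), Cd5 (-0.66), Lck (-0.60) and Cd8a. The last is a CD8 T-cell marker that the list also holds and was the only gene of it called. Cd2 was called lower without anti-CD3 replicate 1 (-1.10) and was at -0.59 without anti-CD3 replicate 2. Summed FPKM of 18 B-cell marker genes was 421.3, 288.1 and 200.6 with anti-CD3 alone and 3770, 1986 and 1675 with FK506, so markers of a cell type that the isolation should remove moved with the treatment. In bulk RNA, fewer cells of a type and less RNA per cell cannot be told apart.

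Several cytokine genes with large differences between the groups lie close together. Il3 and Csf2, which encode the growth factors interleukin-3 and GM-CSF, are neighbours on chromosome 11 with 15.2 kb and 0 genes between them, and Il2 and Il21 lie 96.8 kb apart on chromosome 3. The 250 bases upstream of the transcription start are shown for Il3, Csf2, Tnfsf14 and Il21, which had the 4 largest falls among cytokine genes with a mean FPKM of at least 1 with anti-CD3 alone, and for Il2, the textbook target of NFAT, because NFAT factors bind the 5 bases GGAAA. The sequences are from RefSeq (GRCm38.p6, minus strand, 5' to 3'), and capitals mark GGAAA or its reverse complement TTTCC:
Il3, chr11:54267280-54267529: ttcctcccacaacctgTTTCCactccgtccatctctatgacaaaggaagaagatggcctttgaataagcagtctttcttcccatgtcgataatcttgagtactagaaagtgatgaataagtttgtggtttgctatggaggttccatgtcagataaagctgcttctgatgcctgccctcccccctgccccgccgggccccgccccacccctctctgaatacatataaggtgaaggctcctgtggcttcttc
Csf2, chr11:54249900-54250149: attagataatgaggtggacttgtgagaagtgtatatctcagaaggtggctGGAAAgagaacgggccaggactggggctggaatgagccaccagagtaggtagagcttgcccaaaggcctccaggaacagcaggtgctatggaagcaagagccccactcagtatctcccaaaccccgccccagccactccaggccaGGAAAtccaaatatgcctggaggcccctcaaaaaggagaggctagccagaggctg
Tnfsf14, chr17:57194182-57194431: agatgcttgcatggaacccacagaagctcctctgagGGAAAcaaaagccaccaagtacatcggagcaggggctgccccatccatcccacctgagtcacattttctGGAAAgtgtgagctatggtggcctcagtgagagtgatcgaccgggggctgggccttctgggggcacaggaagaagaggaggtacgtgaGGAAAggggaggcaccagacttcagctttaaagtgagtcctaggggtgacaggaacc
Il21, chr3:37232637-37232886: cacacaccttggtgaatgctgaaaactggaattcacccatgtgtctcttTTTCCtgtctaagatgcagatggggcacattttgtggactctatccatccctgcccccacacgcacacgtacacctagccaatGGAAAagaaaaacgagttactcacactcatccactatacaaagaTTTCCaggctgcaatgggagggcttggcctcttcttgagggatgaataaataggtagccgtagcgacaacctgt
Il2, chr3:37125955-37126204: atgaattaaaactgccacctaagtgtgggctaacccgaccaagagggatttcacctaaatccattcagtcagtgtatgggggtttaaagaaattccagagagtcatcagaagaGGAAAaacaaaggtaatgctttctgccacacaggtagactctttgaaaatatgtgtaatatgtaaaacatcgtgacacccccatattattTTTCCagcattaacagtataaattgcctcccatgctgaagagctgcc

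Il3 held 1 match, 234 bases before the start, and Csf2 held 2, at 200 and 55 bases. Tnfsf14 held 3 (214, 145 and 57 bases), Il21 held 3 (201, 118 and 74 bases) and Il2 held 2 (137 and 47 bases). The motif is short and common. Either strand held it in 55.6% of all 32851 promoters of this length in the RefSeq table, in 54.6% of those of genes lower with FK506, in 53.5% of those of genes higher with FK506 and in 22 of the 26 promoters of the cytokine list described with the cytokine values. A match is a description of the sequence and no evidence of binding, and longer-range enhancers were not examined.

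FK506 was accompanied by differences in both directions. Of the 23585 genes, 2491 (10.6%) were called, with 1520 (6.44%) higher and 971 (4.12%) lower than with anti-CD3 alone, and the median log2 fold change of all genes was -0.0017. The FPKM of the groups did not overlap for 7566 genes (32.1%), of which 2418 were called. Of the genes with a mean FPKM of at least 1 in either group, 822 rose and 662 fell among 12489. An at least 8-fold difference was found in 553 genes that rose and in 156 that fell. Immunoglobulin genes made up 178 of the genes that rose and 0 of those that fell. Without the 4 libraries numbered 1, 2155 genes were called. Without FK506 replicate 2 the count was 1664, the lowest of any with a library left out, and 1625 genes kept their call and direction.

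**Figure D1:**
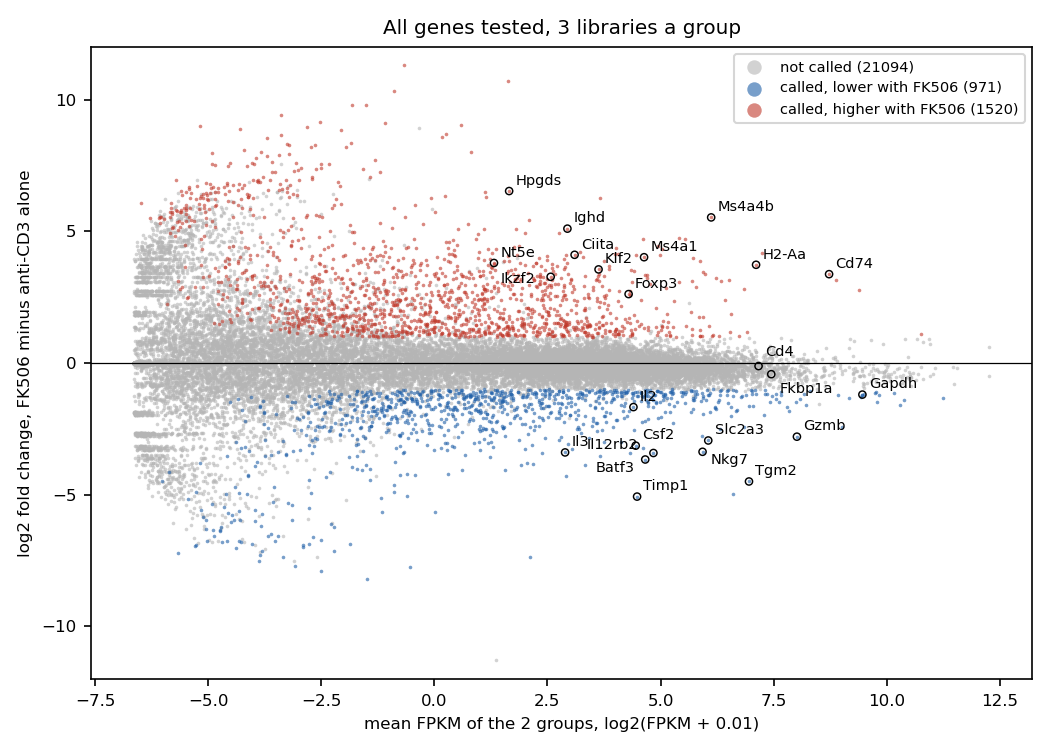
Each point is 1 of the 23585 genes tested, with the mean FPKM of both groups on the x axis, as log2(FPKM + 0.01), and the log2 fold change of FK506 against anti-CD3 alone on the y axis; colours mark the 1520 genes called higher and the 971 called lower. Among well expressed genes, Tgm2 and Timp1 stand far below 0, and the rises at the top left are mostly genes of low level.

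The genes of FKBP12 and calcineurin were not called. Fkbp1a, which encodes FKBP12, was at 158, 227 and 197 with anti-CD3 alone and 143, 146 and 177 with FK506 (log2 fold change -0.42, SE 0.14, adjusted p = 0.0486), below the 2-fold threshold, and the groups overlapped. Calcineurin consists of a catalytic and a regulatory subunit. The log2 fold change was -0.01, adjusted p = 0.987, for the catalytic subunit gene Ppp3ca, 0.21, adjusted p = 0.0958, for Ppp3cb, 0.18, adjusted p = 0.411, for Ppp3cc and 0.07, adjusted p = 0.843, for the regulatory subunit gene Ppp3r1. The sign for Ppp3ca and Ppp3r1 depended on the normalization or the libraries used, so no direction is given for them. Rcan1, an NFAT target that feeds back on calcineurin, was at 3.76, 5.03 and 3.69 with anti-CD3 alone and 3.92, 3.86 and 3.72 with FK506 (log2 fold change -0.25, SE 0.16, adjusted p = 0.29), with overlapping groups.

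None of the NFAT genes themselves reached 2-fold by edgeR. Of the 32 genes of the calcineurin and NFAT list 10 had an adjusted p under 0.05, next to 4483 of all 23585 genes. Nfatc1, whose short form is induced by NFAT itself, was at 36.9, 28.8 and 41.8 with anti-CD3 alone and 64.8, 75.5 and 58.9 with FK506 (log2 fold change 0.79, SE 0.13, adjusted p = 0.00195), and the groups did not overlap. Nfatc3 had a log2 fold change of 0.45, adjusted p = 0.00839 and Nfatc2 one of 0.36, adjusted p = 0.13. The calcium sensor gene Stim2 and the channel gene Orai2 had log2 fold changes of 0.61, adjusted p = 0.00519 and 0.62, adjusted p = 0.00519. Orai1, the main pore of the store-operated calcium channel, was at 37.4, 93.2 and 53.2 with anti-CD3 alone and 30.6, 36.4 and 34.7 with FK506 (log2 fold change -0.98, SE 0.27, adjusted p = 0.0252); it was called lower without anti-CD3 replicate 1 (-1.23) and without anti-CD3 replicate 3 (-1.10), whereas without anti-CD3 replicate 2, its highest library, it was at -0.51 (adjusted p = 0.0698). Of the whole list 1 gene rose and 0 fell, against 6.44% and 4.12% of all genes, with a median of 0.05. The gene that rose was Akap5, an anchor of calcineurin, whose FPKM was 0.0153, 0.0103 and 0.0263 with anti-CD3 alone and 0.0606, 0.105 and 0.0865 with FK506. With 1 library left out, the number of genes of this list called ran from 1 to 3, the highest without anti-CD3 replicate 1. Of 14 genes of FK506-binding proteins 1 rose and 1 fell, next to 10.6% of all genes called in either direction, and both had an FPKM below 1 in every library. The log2 fold change was negative for 12 of the 14, with a median of -0.56, and 10 had an unadjusted p under 0.05 (7774 of all 23585 genes). Fkbp11 was at 4.91, 3.52 and 2.12 with anti-CD3 alone and 2.5, 0.824 and 1 with FK506 (log2 fold change -1.42, SE 0.46, adjusted p = 0.0514), and was called lower with DESeq2 (adjusted p = 0.0177), with the replicate block over 12 libraries (0.0118) and without anti-CD3 replicate 3 (0.0278), L. acidophilus replicate 1 (0.0418) or FK506 replicate 1 (0.0161). It was not called with the block over the 6 libraries compared or without any 1 of the other libraries of both groups, where its adjusted p reached 0.175 without FK506 replicate 2; 19 of 28 alternatives left it uncalled. Fkbp1b fell (-2.48, adjusted p = 0.0213) and was not called without anti-CD3 replicate 1, anti-CD3 replicate 2 or FK506 replicate 1 (adjusted p from 0.0527 to 0.078). Fkbp14 had 0 counts with anti-CD3 alone and was at least 14-fold higher, against a floor of 3 counts over the group.

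**Figure D2:**
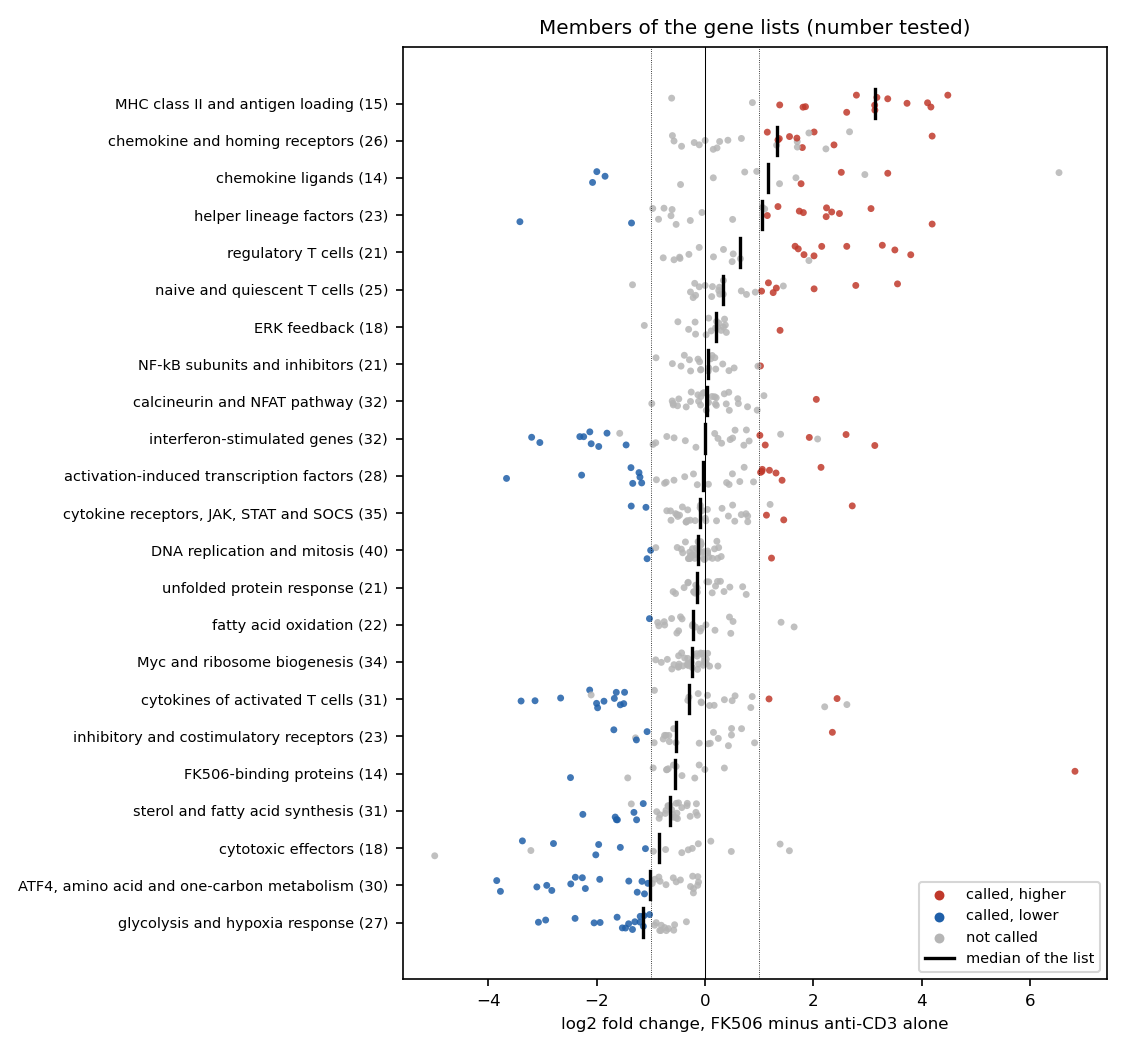
Log2 fold changes of FK506 against anti-CD3 alone (x axis) for the tested members of each gene list (y axis, number tested in brackets); points are genes, coloured by call, black bars are medians and dotted lines mark 2-fold. The 27 glycolysis, 30 ATF4 and 31 sterol genes all lie below 0, and the MHC class II list has the highest median (3.13).

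Cytokine genes of activated T cells fell with FK506 more often than they rose. Of 31 cytokine genes, 12 fell and 2 rose, against 4.12% and 6.44% of all genes, and the median of the list was -0.30. Il3 was 10.5-fold lower, with an FPKM of 15.4, 15.9 and 8.98 with anti-CD3 alone and 1.32, 0.862 and 1.93 with FK506 (log2 fold change -3.39, SE 0.38, adjusted p = 0.000247). Its neighbour Csf2 was at 66.6, 27.7 and 22.6 with anti-CD3 alone and 6.21, 2.82 and 5.27 with FK506 (log2 fold change -3.14, SE 0.69, adjusted p = 0.00854), or -2.48 without anti-CD3 replicate 1. Neither gene's groups overlapped, and both kept their calls whichever library was left out. Tnfsf14, which encodes LIGHT, a costimulatory ligand of the TNF family, was at 11.8, 21.3 and 15.4 with anti-CD3 alone and 3.08, 2.4 and 2.79 with FK506 (log2 fold change -2.66, SE 0.32, adjusted p = 0.000339). Il21, a helper cytokine for germinal centre B cells, was at 57.4, 29.97 and 40.5 with anti-CD3 alone and 8.09, 6.77 and 16.6 with FK506 (log2 fold change -2.13, SE 0.40, adjusted p = 0.00386). For these genes too the lowest anti-CD3 library lay above the highest FK506 library.

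Il2, the main growth factor of T cells, was at 15.6, 32.4 and 46.9 with anti-CD3 alone and 6.1, 10.4 and 15.2 with FK506 (log2 fold change -1.67, SE 0.47, adjusted p = 0.0281). The groups only just separated, and the call was lost without anti-CD3 replicate 2 (adjusted p = 0.0695), anti-CD3 replicate 3 (0.0843), FK506 replicate 1 (0.0994) or FK506 replicate 2 (0.0959). The CD40 ligand gene Cd40lg, through which helper T cells activate B cells, fell from 16.9, 20.7 and 22.4 to 8.45, 6.61 and 8.07 (log2 fold change -1.48, SE 0.22, adjusted p = 0.00113). Osm, which encodes oncostatin M, was at 27.4, 18.8 and 18.3 with anti-CD3 alone and 5.57, 5.35 and 8.27 with FK506 (log2 fold change -1.86, SE 0.27, adjusted p = 0.000956). The groups of these genes were apart, and both kept their calls whichever library was left out. Il13 was at 364, 241 and 127 with anti-CD3 alone and 63.1, 48.9 and 90.3 with FK506 (log2 fold change -1.98, SE 0.45, adjusted p = 0.0104), and was not called without FK506 replicate 2 (adjusted p = 0.0535).

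The type 2 cytokine genes beside Il13 on chromosome 11 did not pass the test. Il4, 12.7 kb from Il13, was at 60.2, 20.8 and 24.5 with anti-CD3 alone and 36.9, 23.4 and 49.5 with FK506 (log2 fold change -0.07, SE 0.58, adjusted p = 0.975), and its sign changed with the normalization and the libraries used. Il5 was at 11.5, 6.23 and 6.78 with anti-CD3 alone and 5.79, 3.21 and 4.94 with FK506 (log2 fold change -0.93, SE 0.60, adjusted p = 0.304), with groups that did not overlap. Tnf, an early effector cytokine, had overlapping groups at 13.9, 13.8 and 15.2 with anti-CD3 alone and 13, 16.2 and 18.7 with FK506 (log2 fold change 0.05, SE 0.15, adjusted p = 0.88). No direction is given for Il4 or Tnf. Ifng, the type 1 cytokine gene, was low in all 6 libraries, at 3.83, 2.5 and 3.45 with anti-CD3 alone and 4.13, 4.02 and 7.34 with FK506 (log2 fold change 0.56, SE 0.59, adjusted p = 0.554). The 2 cytokine genes that rose were Ltb, a subunit of lymphotoxin that B cells also express (1.18, adjusted p = 0.041), and Areg (2.44, adjusted p = 0.0446). Ltb was not called without anti-CD3 replicate 1, anti-CD3 replicate 3, FK506 replicate 1, FK506 replicate 2, combination replicate 2 or combination replicate 3, where its adjusted p lay between 0.0509 and 0.131, and Areg was not called without any 1 of the 9 libraries other than those of L. acidophilus, where it lay between 0.0544 and 0.131. Il17a and Il17f, the cytokine genes of type 17 helper cells, were not called. Il17a was at 0.664, 0.129 and 0.562 with anti-CD3 alone and 5.15, 1.37 and 0.469 with FK506 (log2 fold change 2.21, SE 0.95, adjusted p = 0.127), and Il17f at 0.462, 0.089 and 0.0927 with anti-CD3 alone and 3.02, 0.869 and 0.126 with FK506 (log2 fold change 2.62, SE 0.97, adjusted p = 0.0829). FK506 replicate 1 was the highest library for both, and without it their log2 fold changes were 0.88 and 0.87. Il17f was called higher without FK506 replicate 3 (adjusted p = 0.0186). With DESeq2 both were called higher (adjusted p = 0.0415 and 0.0394), so that 4 cytokine genes rose in that test, and with the replicate number as a block over 12 libraries both were called as well (0.0415 and 0.0201), but not with that block over the 6 compared (0.176 and 0.118). The number of cytokine genes called was 9 without FK506 replicate 1 and 8 without FK506 replicate 2, and all of these were lower.

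**Figure D3:**
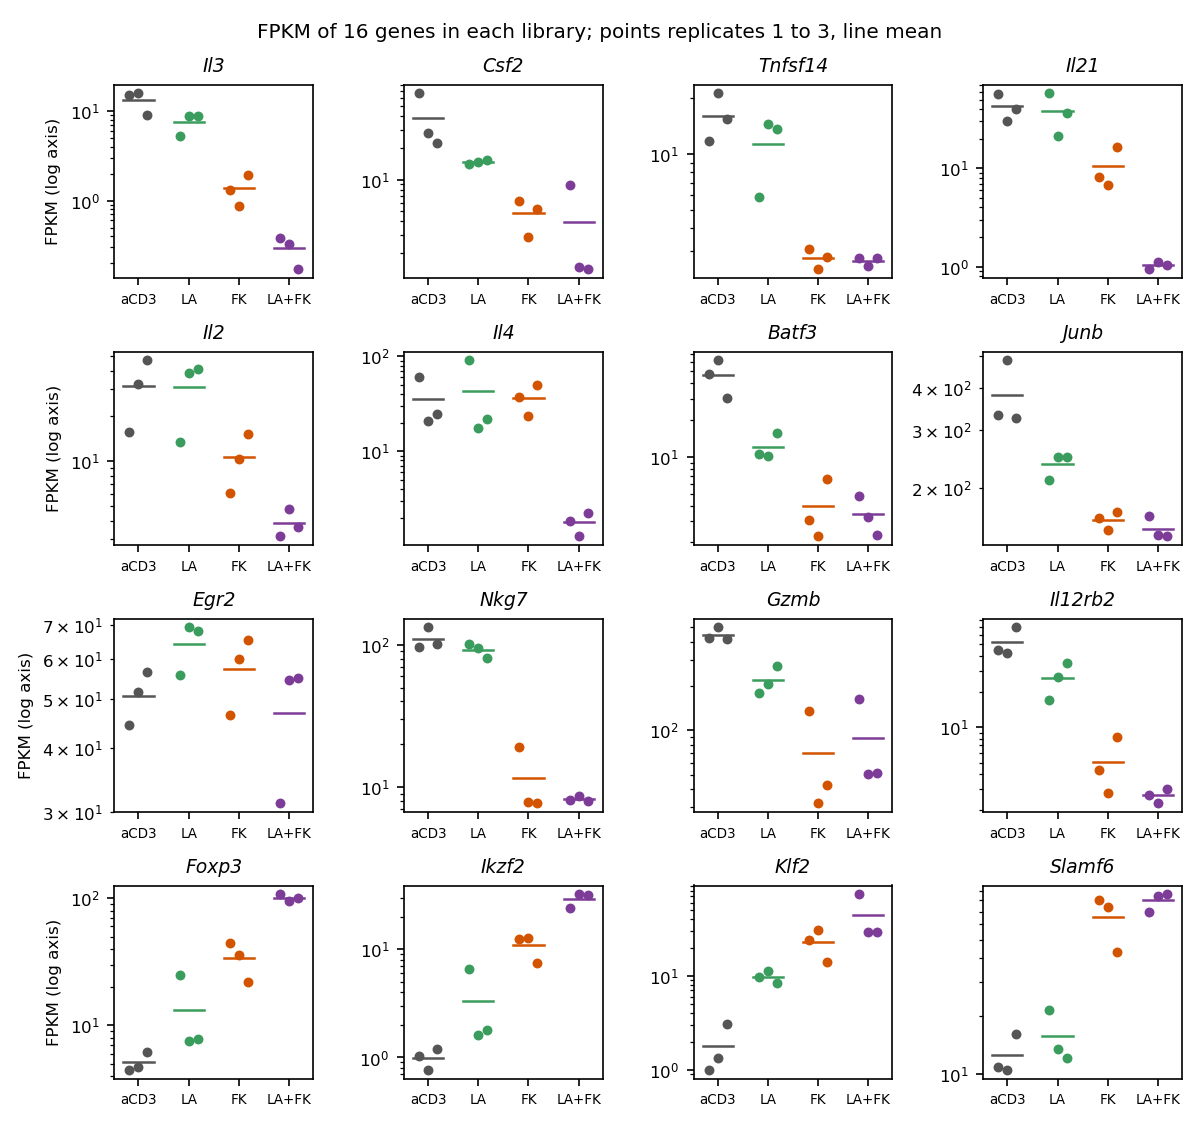
FPKM on a log axis of 16 genes in each of the 12 libraries, grouped as anti-CD3 alone (aCD3), L. acidophilus (LA), FK506 (FK) and the combination (LA+FK); points are replicates 1 to 3 and lines are means. Il3, Csf2, Tnfsf14, Il21, Batf3, Nkg7, Gzmb and Il12rb2 are lower in every FK506 library than in every anti-CD3 library, Foxp3, Ikzf2, Klf2 and Slamf6 are higher, and Il4 and Egr2 overlap.

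Genes of activation-induced transcription factors moved in both directions. Of 28 genes, 7 fell and 7 rose, against 4.12% and 6.44% of all genes, with a median of -0.04. Batf3, an AP-1 family factor, was at 47.6, 61.7 and 30.5 with anti-CD3 alone and 3.05, 2.25 and 6.65 with FK506 (log2 fold change -3.66, SE 0.45, adjusted p = 0.000397). Junb, another AP-1 gene, was at 331, 486 and 325 with anti-CD3 alone and 163, 149.7 and 169.6 with FK506 (log2 fold change -1.37, SE 0.17, adjusted p = 0.000398). The nuclear receptor gene Nr4a2 was at 8.79, 20.5 and 29.6 with anti-CD3 alone and 3.44, 4.67 and 4.7 with FK506 (log2 fold change -2.28, SE 0.47, adjusted p = 0.00602). No anti-CD3 library overlapped an FK506 library for these genes. Fosl2 (-1.22, adjusted p = 0.000971), Atf3 (-1.33, adjusted p = 0.00424) and Bhlhe40 (-1.20, adjusted p = 0.000727), the last needed for GM-CSF production, also fell, and these 6 kept their calls without any 1 library. Batf, the seventh and an AP-1 factor that works with Irf4, had overlapping groups at 218, 402 and 139 with anti-CD3 alone and 156, 95.4 and 119.7 with FK506 (log2 fold change -1.17, SE 0.34, adjusted p = 0.034). Without anti-CD3 replicate 2 its log2 fold change was -0.64 (adjusted p = 0.151), and it was not called without FK506 replicate 2 (0.133) or 3 (0.0869) either.

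Egr2 and Nr4a1, immediate-early genes of the T-cell receptor, overlapped between the groups. Egr2 was at 44.3, 51.5 and 56.4 with anti-CD3 alone and 46.5, 59.9 and 65.4 with FK506 (log2 fold change 0.06, SE 0.20, adjusted p = 0.874), and its sign changed when 1 library was left out. Nr4a1 was at 23.1, 58.9 and 53.1 with anti-CD3 alone and 56.4, 107 and 65.2 with FK506 (log2 fold change 0.64, SE 0.31, adjusted p = 0.167), and Irf4 at 217, 192 and 257 with anti-CD3 alone and 169, 185 and 265 with FK506 (log2 fold change -0.21, SE 0.21, adjusted p = 0.519). The groups of Egr3, which restrains T-cell activation together with Egr2, did not overlap. Egr3 was at 13.6, 11.3 and 13.6 with anti-CD3 alone and 16.4, 31.6 and 29.3 with FK506 (log2 fold change 0.90, SE 0.25, adjusted p = 0.0255), below 2-fold, and ran from 0.74 without FK506 replicate 2 to 1.15, a call, without FK506 replicate 1. Fosb, an AP-1 gene at a low level, rose from 0.0923, 0.336 and 0.317 to 0.999, 1.74 and 0.881 (log2 fold change 2.14, SE 0.43, adjusted p = 0.00554). Irf8, a factor of B cells and myeloid cells as well as of T cells, rose from 34.4, 19.1 and 18 to 79.7, 74.3 and 56.6 (log2 fold change 1.42, SE 0.23, adjusted p = 0.00167). The number of these genes called was 8 without anti-CD3 replicate 2 and 9 without FK506 replicate 2.

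Several effector genes of cytotoxicity fell with FK506. Of 18 genes, 6 fell and 0 rose, where 4.12% and 6.44% of all genes did so, with a median of -0.84. Nkg7, a protein of cytotoxic granules, was at 96.6, 132 and 102 with anti-CD3 alone and 19.1, 7.83 and 7.75 with FK506 (log2 fold change -3.37, SE 0.31, adjusted p = 0.000111). Gzmb, which encodes granzyme B, was at 425, 501 and 415 with anti-CD3 alone and 136, 32.1 and 42.8 with FK506 (log2 fold change -2.80, SE 0.57, adjusted p = 0.00602). Perforin's gene Prf1 was at 3.72, 4.19 and 3.63 with anti-CD3 alone and 1.65, 0.762 and 0.762 with FK506 (log2 fold change -1.96, SE 0.34, adjusted p = 0.00259). The groups were apart for all 3 genes, and in Gzmb FK506 replicate 1 lay well above the other FK506 libraries; without it the log2 fold change was -3.68. Crtam fell (log2 fold change -2.01, SE 0.36, adjusted p = 0.00309) from 12, 28.4 and 23.8 to 5.74, 5.57 and 5.87, and Fasl, the death ligand gene, had a log2 fold change of -1.56, adjusted p = 0.0135, which was not called without FK506 replicate 3 (adjusted p = 0.0551). The granzyme A gene overlapped between the groups, with Gzma at 24.8, 9.94 and 14.9 with anti-CD3 alone and 18.2, 6.9 and 14.9 with FK506 (log2 fold change -0.43, SE 0.43, adjusted p = 0.534).

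The receptor subunit gene Il12rb2, which makes cells responsive to interleukin-12, fell from 44.6, 42.3 and 69.8 to 4.38, 2.77 and 8.23 (log2 fold change -3.42, SE 0.37, adjusted p = 0.000189). Tbx21, which encodes T-bet, the type 1 lineage factor, was at 35.2, 49.8 and 33.8 with anti-CD3 alone and 12.5, 13.3 and 24.3 with FK506 (log2 fold change -1.36, SE 0.28, adjusted p = 0.00587). Gata3, the type 2 factor, was at 88.5, 74.8 and 83.9 with anti-CD3 alone and 63.4, 50.5 and 70.9 with FK506 (log2 fold change -0.53, SE 0.13, adjusted p = 0.0126), below 2-fold. Il12rb2 and Tbx21 were the 2 of 23 helper lineage genes that fell, and 10 rose. Among these, Il18r1 kept its call under all 28 alternatives (log2 fold change 1.25 to 2.70). Rora did so under 26 (0.79 to 2.07) and Il1rl1 under 19 (1.07 to 3.07). The inflammatory chemokine genes Ccl3 and Ccl4, which lie side by side on chromosome 11, were at 50.5, 54.8 and 52.3 with anti-CD3 alone and 10.2, 12.3 and 24.8 with FK506 (log2 fold change -1.84, SE 0.34, adjusted p = 0.00348) and at 58.8, 47.1 and 39.8 with anti-CD3 alone and 9.56, 11.5 and 16.6 with FK506 (log2 fold change -2.07, SE 0.28, adjusted p = 0.000599). Ccl5 was at 22.6, 18.3 and 22.2 with anti-CD3 alone and 6.86, 5.27 and 4.99 with FK506 (log2 fold change -2.0, SE 0.17, adjusted p = 9.68e-05). Each of these 3 genes was lower in all FK506 libraries. Of 14 chemokine ligand genes, 3 fell and 3 rose (4.12% and 6.44% of all genes), with a median of 1.17. Those that rose were Ccl20 (3.38, adjusted p = 0.0127), Cxcl10 (2.52, adjusted p = 0.011) and Cxcl16 (1.77, adjusted p = 0.0191), all with an FPKM below 5 in every library. Without FK506 replicate 1 Cxcl10 was at 1.91. Ccl20 missed the threshold without anti-CD3 replicate 2 (adjusted p = 0.0503), and Cxcl16 without anti-CD3 replicate 3, FK506 replicate 1 or FK506 replicate 2 (adjusted p from 0.0571 to 0.0708).

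Several genes of regulatory T cells rose with FK506. Of 21 genes, 9 rose and 0 fell, against 6.44% and 4.12% of all genes, and the median was 0.66. Foxp3, the lineage factor of regulatory T cells, was at 4.45, 4.73 and 6.2 with anti-CD3 alone and 44.8, 35.6 and 21.9 with FK506 (log2 fold change 2.62, SE 0.42, adjusted p = 0.00152). Ikzf2, which encodes Helios, was at 1.02, 0.764 and 1.2 with anti-CD3 alone and 12.4, 12.6 and 7.53 with FK506 (log2 fold change 3.27, SE 0.48, adjusted p = 0.000957). Both genes were separated between the groups, with FK506 replicate 3 the lowest of the FK506 libraries. Nt5e, the surface enzyme CD73 that makes adenosine, was at 0.482, 0.123 and 0.295 with anti-CD3 alone and 6.19, 5.67 and 2.12 with FK506 (log2 fold change 3.80, SE 0.71, adjusted p = 0.00355). Lrrc32, which presents latent TGF-beta, rose from 3.8, 2.07 and 3.13 to 15.9, 14.3 and 9.54 (log2 fold change 2.01, SE 0.36, adjusted p = 0.0028), and Gpr83 from 6.25, 7.25 and 7.51 to 24.3, 26.1 and 25.1 (log2 fold change 1.72, SE 0.26, adjusted p = 0.00107). These 5 calls held without any 1 library.

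Of the 12 genes of this list that were not called, Il2ra and Ctla4 are also expressed by activated T cells in general. Il2ra, the high-affinity interleukin-2 receptor chain, was at 469, 414 and 548 with anti-CD3 alone and 393, 294 and 427 with FK506 (log2 fold change -0.47, SE 0.16, adjusted p = 0.0594), and Ctla4 at 106, 88.5 and 103 with anti-CD3 alone and 159.8, 72 and 69.9 with FK506 (log2 fold change -0.11, SE 0.31, adjusted p = 0.868), both with overlapping groups. Of the remaining genes that rose, Klrg1 stood at the lowest level. Klrg1 rose (log2 fold change 3.51, SE 0.93, adjusted p = 0.0215) from 0.288, 0.344 and 0.309 to 7.99, 2.39 and 1.3, where replicate 1 was the highest; the call was lost without any 1 of the anti-CD3 libraries (adjusted p from 0.0573 to 0.0656) and without FK506 replicate 1 (2.44, adjusted p = 0.0938). Swap70, a list member that B cells also express, rose from 11, 7.14 and 7.94 to 38.7, 37.8 and 24.3 (log2 fold change 1.83, SE 0.23, adjusted p = 0.000383). Nrp1 (1.66, adjusted p = 0.000531) and Itgb8 (2.16, adjusted p = 0.00922) rose as well. B-cell markers rose in the same libraries, as given above, and their part in the values of Swap70 was not tested.

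Some genes of resting T cells rose with FK506. Of 25 genes, 7 rose and 0 fell, against 6.44% and 4.12% of all genes, with a median of 0.34. Klf2, a factor that keeps T cells quiescent and is shut off by activation, was at 0.995, 1.34 and 3.11 with anti-CD3 alone and 24.2, 30.5 and 14 with FK506 (log2 fold change 3.56, SE 0.49, adjusted p = 0.000683). Its target S1pr1, the receptor that lets lymphocytes leave lymphoid organs, was at 3.18, 3.6 and 4.41 with anti-CD3 alone and 17.8, 21.5 and 9.76 with FK506 (log2 fold change 2.02, SE 0.42, adjusted p = 0.00674). The groups did not overlap for these genes. Klf3 rose from 5.92, 7.18 and 9.99 to 17.7, 24.6 and 16.6 (log2 fold change 1.26, SE 0.21, adjusted p = 0.00189). Tcf7, which encodes TCF-1, was at 35.3, 57 and 66.9 with anti-CD3 alone and 100.2, 177 and 119.6 with FK506 (log2 fold change 1.17, SE 0.23, adjusted p = 0.00519) and was under 2-fold without anti-CD3 replicate 1 (0.97) or FK506 replicate 2 (0.93). Without FK506 replicate 2, 3 of the 25 genes were called.

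Receptor genes of cell traffic rose or were not called. Of 26 chemokine and homing receptor genes 9 rose and 0 fell, next to 6.44% and 4.12% of all genes, with a median of 1.34. Cxcr4 was at 17.8, 17.9 and 15.5 with anti-CD3 alone and 62, 51.5 and 50.9 with FK506 (log2 fold change 1.56, SE 0.20, adjusted p = 0.000524), and Cxcr3 at 4.95, 6.37 and 7.1 with anti-CD3 alone and 16.7, 14.6 and 12.9 with FK506 (log2 fold change 1.15, SE 0.15, adjusted p = 0.000524). Both groups were tight, and FK506 lay above anti-CD3 alone in every library. Ccr6 was at 0.429, 0.0615 and 0.0715 with anti-CD3 alone and 4.65, 6.89 and 2.26 with FK506 (log2 fold change 4.19, SE 0.75, adjusted p = 0.00294), or 5.51 without anti-CD3 replicate 1, and Gpr183 at 6.85, 8.61 and 10.8 with anti-CD3 alone and 31.1, 34.3 and 26.5 with FK506 (log2 fold change 1.70, SE 0.23, adjusted p = 0.000689). B cells also express Cxcr4, Ccr6 and Gpr183, as well as Klf2, S1pr1, Cxcr5 and Bcl6; the rise of the B-cell markers in the FK506 libraries stands beside them, and its part in their values was not tested. Slamf6, a surface receptor of T cells and B cells, rose from 10.9, 10.5 and 16.2 to 80.5, 73.7 and 42.9 (log2 fold change 2.35, SE 0.27, adjusted p = 0.000262), whereas the inhibitory ligand gene Cd200 fell from 81.7, 119 and 129.7 to 29.6, 38.3 and 42.6 (log2 fold change -1.68, SE 0.22, adjusted p = 0.00049).

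Of 23 inhibitory and costimulatory receptor genes 1 rose and 3 fell, and of 23 helper lineage genes 10 rose and 2 fell, with medians of -0.53 and 1.06, against 6.44% of all genes that rose and 4.12% that fell. Of the first list, the genes that fell beside Cd200 were Tnfrsf9 (-1.26, adjusted p = 0.00427), which encodes 4-1BB, and Tnfrsf4 (-1.07, adjusted p = 0.00433), which encodes OX40 and was under 2-fold without anti-CD3 replicate 2 (-0.79) or FK506 replicate 2 (-0.96). Bcl6, the factor of follicular helper T cells and germinal centre B cells, was at 2.96, 2.68 and 2.97 with anti-CD3 alone and 12.9, 11.6 and 7.2 with FK506 (log2 fold change 1.82, SE 0.21, adjusted p = 0.00027). Eomes, a factor related to T-bet, was at 0.773, 0.444 and 0.635 with anti-CD3 alone and 6.22, 8.05 and 2.89 with FK506 (log2 fold change 3.07, SE 0.42, adjusted p = 0.000675). Both were higher in every FK506 library and kept their calls without any 1 library. Cxcr5, the follicle-homing receptor of follicular helper T cells and B cells, was at 6.37, 5.34 and 3.84 with anti-CD3 alone and 17.9, 13.8 and 11.6 with FK506 (log2 fold change 1.35, SE 0.24, adjusted p = 0.00289). The checkpoint genes Pdcd1 and Lag3 had log2 fold changes of -0.75, adjusted p = 0.0732 and 0.10, adjusted p = 0.678, with overlapping groups. Pdcd1 was called lower without anti-CD3 replicate 1 (-1.0, adjusted p = 0.0121) and was at -0.22 (adjusted p = 0.253) without anti-CD3 replicate 2.

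Single genes of the signalling branches beside calcineurin were called. Of 21 genes of NF-kB subunits and inhibitors 1 rose and 0 fell, and of 18 ERK feedback genes 1 rose and 0 fell, with medians of 0.06 and 0.21. Of all genes, 10.6% were called. Spry1, an ERK feedback inhibitor, had a log2 fold change of -1.12, adjusted p = 0.0736; it was called lower with DESeq2 (adjusted p = 0.0207), with the replicate block and without anti-CD3 replicate 1 (-1.42, adjusted p = 0.0277), where 2 genes of its list were called. Without any 1 other library of both groups it was not called, down to -0.84 (adjusted p = 0.215) without FK506 replicate 1. The genes that rose were Nfkbiz (1.02, adjusted p = 0.00859), which was under 2-fold without anti-CD3 replicate 2 (0.83) or FK506 replicate 2 (0.85), and the phosphatase gene Dusp10, at 12.6, 14 and 14.7 with anti-CD3 alone and 44.1, 44.7 and 28.5 with FK506 (log2 fold change 1.39, SE 0.29, adjusted p = 0.00664). Malt1, which links the T-cell receptor to NF-kB, had a log2 fold change of -0.90, adjusted p = 0.00448, and was called lower without anti-CD3 replicate 2 (-1.06) or FK506 replicate 3 (-1.03). Of 35 genes of cytokine receptors, JAK kinases, STAT factors and SOCS proteins, 3 rose and 2 fell, near the share of all genes. The counts of called NF-kB genes ranged from 0 without FK506 replicate 2 to 3 without FK506 replicate 3. Jak2, the kinase of the interferon-gamma and interleukin-12 receptors, fell from 269, 216 and 309 to 103, 94.9 and 134 (log2 fold change -1.36, SE 0.20, adjusted p = 0.00113). Tgfbr1 and Tgfbr2, the TGF-beta receptor genes, were at 3.9, 3.07 and 4.55 with anti-CD3 alone and 11.1, 13.2 and 9.89 with FK506 (log2 fold change 1.45, SE 0.18, adjusted p = 0.000413) and at 11.4, 10.7 and 14.9 with anti-CD3 alone and 27, 34.5 and 26.1 with FK506 (log2 fold change 1.14, SE 0.13, adjusted p = 0.000293). These genes had groups that did not overlap. Il9r rose (2.72, adjusted p = 0.00311, or 3.42 without anti-CD3 replicate 1), and Socs3 fell (-1.09, adjusted p = 0.0324) but was not called without anti-CD3 replicate 1, FK506 replicate 1 or FK506 replicate 2 (adjusted p from 0.111 to 0.113).

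The genes of glycolysis, which activated T cells switch on to grow, were lower with FK506. All 27 genes of the glycolysis and hypoxia list had a negative log2 fold change, with a median of -1.14 against -0.0017 for all genes, and 16 fell, where 4.12% of all genes did. Slc2a3, a glucose transporter, was at 209, 55.4 and 82.2 with anti-CD3 alone and 19.1, 13.9 and 18.9 with FK506 (log2 fold change -2.94, SE 0.45, adjusted p = 0.00126), where anti-CD3 replicate 1 stood far above the others; without it the log2 fold change was -2.08. Hk2, the first enzyme of the pathway, was at 56.6, 30.9 and 41.7 with anti-CD3 alone and 14.4, 12.5 and 21.6 with FK506 (log2 fold change -1.52, SE 0.24, adjusted p = 0.00135). Gapdh was at 988, 1035 and 851 with anti-CD3 alone and 455, 366 and 537 with FK506 (log2 fold change -1.20, SE 0.17, adjusted p = 0.000865). FK506 libraries lay below all anti-CD3 libraries for each of them. Pkm, pyruvate kinase, was at 1529.7, 2728 and 1425 with anti-CD3 alone and 751, 629.6 and 958 with FK506 (log2 fold change -1.41, SE 0.25, adjusted p = 0.00295). Aldoc (-3.07, adjusted p = 0.000461), Slc16a3 (-1.93, adjusted p = 0.000537), the lactate exporter, and the hypoxia-induced gene Vegfa (-2.40, adjusted p = 0.0011) fell too. Slc2a1, the transporter GLUT1, had a log2 fold change of -1.14, adjusted p = 0.00162 and was under 2-fold without anti-CD3 replicate 1 (-0.91); Ldha (-1.13, adjusted p = 0.00381) was so without anti-CD3 replicate 2 (-0.86). Hif1a, which encodes the factor behind much of this list, was at 186, 164 and 226 with anti-CD3 alone and 129.9, 99.8 and 139 with FK506 (log2 fold change -0.75, SE 0.15, adjusted p = 0.00525), below 2-fold.

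Genes of amino acid metabolism that the factor ATF4 controls were lower too. All 30 members had a negative log2 fold change, with a median of -1.01, and 15 fell, next to 4.12% of all genes. Asns, asparagine synthetase, was at 49, 40.7 and 32.2 with anti-CD3 alone and 10.3, 7.41 and 10.9 with FK506 (log2 fold change -2.21, SE 0.20, adjusted p = 9.68e-05). Trib3 was at 17, 11.9 and 6.17 with anti-CD3 alone and 2.05, 1.54 and 1.49 with FK506 (log2 fold change -2.92, SE 0.38, adjusted p = 0.000527), and Chac1, which breaks down glutathione, at 9.77, 8.6 and 5.24 with anti-CD3 alone and 1.23, 0.509 and 1.22 with FK506 (log2 fold change -3.10, SE 0.38, adjusted p = 0.000383). The FK506 values stayed below the lowest anti-CD3 library for all 3. Eif4ebp1, a brake on translation, fell from 76.7, 71.1 and 41 to 15.8, 11.8 and 15.4 (log2 fold change -2.26, SE 0.23, adjusted p = 0.000157), and Slc1a4, an amino acid transporter, from 5.97, 4 and 4.34 to 0.988, 0.749 and 1.04 (log2 fold change -2.48, SE 0.24, adjusted p = 0.000125). The transporter gene Slc7a5 had a log2 fold change of -1.16, adjusted p = 0.00195 and was under 2-fold without anti-CD3 replicate 1 (-0.97), and Phgdh (-1.41, adjusted p = 0.00487), the entry to serine synthesis, was so without anti-CD3 replicate 2 (-0.92). Atf4 itself was at 132, 194 and 149 with anti-CD3 alone and 107, 91.6 and 114 with FK506 (log2 fold change -0.72, SE 0.15, adjusted p = 0.00563), below 2-fold.

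Of 31 genes of sterol and fatty acid synthesis, all 31 had a negative log2 fold change, with a median of -0.64, and 7 fell, against 4.12% of all genes. Without the 4 libraries numbered 1, 4 of them were called. Fads2, a fatty acid desaturase, was at 40.8, 39 and 38.7 with anti-CD3 alone and 11.1, 4.18 and 11.5 with FK506 (log2 fold change -2.25, SE 0.32, adjusted p = 0.000856). Fdps, of the mevalonate pathway, was at 179, 258 and 151 with anti-CD3 alone and 78.8, 52.5 and 78.3 with FK506 (log2 fold change -1.62, SE 0.21, adjusted p = 0.000542), and Scd2, another desaturase, at 395, 262 and 333 with anti-CD3 alone and 105, 56.2 and 176 with FK506 (log2 fold change -1.66, SE 0.38, adjusted p = 0.0112). All 3 genes were lower in every FK506 library. Of 22 genes of fatty acid oxidation, 15 had a negative log2 fold change, 12 had an adjusted p under 0.05 (4483 of all 23585 genes) and 13 had groups that did not overlap (32.1% of all genes). Of these 22 genes 1 fell by at least 2-fold, Acaa2 (-1.02, adjusted p = 0.00158), which was under 2-fold without anti-CD3 replicate 2 (-0.79), FK506 replicate 1 (-0.99) or FK506 replicate 3 (-0.98).

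Genes of cell division were called at about the share of all genes or less. Of 40 genes of DNA replication and mitosis 1 rose and 2 fell (10.6% of all genes were called), with a median of -0.13. Of 34 genes of the Myc and ribosome biogenesis list 0 were called by edgeR, with a median of -0.24, and 0 by DESeq2. In the edgeR test 12 of the 34 had an unadjusted p under 0.05, next to 7774 of all 23585 genes. Without anti-CD3 replicate 1 or 3, 1 gene of the Myc list was called. Mki67, the proliferation marker, was at 83.5, 50.3 and 90.2 with anti-CD3 alone and 110.5, 86 and 101 with FK506 (log2 fold change 0.30, SE 0.24, adjusted p = 0.407), and Mcm2, of the replicative helicase, at 77.9, 73.8 and 70.2 with anti-CD3 alone and 76.3, 74.4 and 85.5 with FK506 (log2 fold change -0.03, SE 0.11, adjusted p = 0.924). Top2a was at 158, 116 and 165 with anti-CD3 alone and 169, 138 and 183 with FK506 (log2 fold change 0.05, SE 0.16, adjusted p = 0.883). The groups overlapped for all of these proliferation genes. Myc was at 94, 89.4 and 92.8 with anti-CD3 alone and 58.4, 60.04 and 82.2 with FK506 (log2 fold change -0.57, SE 0.15, adjusted p = 0.0227), below 2-fold with groups that did not overlap. Cdkn2c, an inhibitor of the kinases that start the cell cycle, rose from 7.8, 8.13 and 8.87 to 24.4, 19.9 and 18.8 (log2 fold change 1.23, SE 0.14, adjusted p = 0.000279). The genes that fell were Cdkn1a (-1.07, adjusted p = 0.00364), which was under 2-fold without anti-CD3 replicate 2 (-0.84), FK506 replicate 1 (-0.98) or FK506 replicate 2 (-0.996), and Gins2 (-1.0, adjusted p = 0.0305), which was at -0.41 without anti-CD3 replicate 2 and not called without any of the FK506 libraries. Of 21 genes of the unfolded protein response 0 were called by edgeR or DESeq2, with 7 at an unadjusted p under 0.05 (7774 of all 23585 genes).

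**Figure D4:**
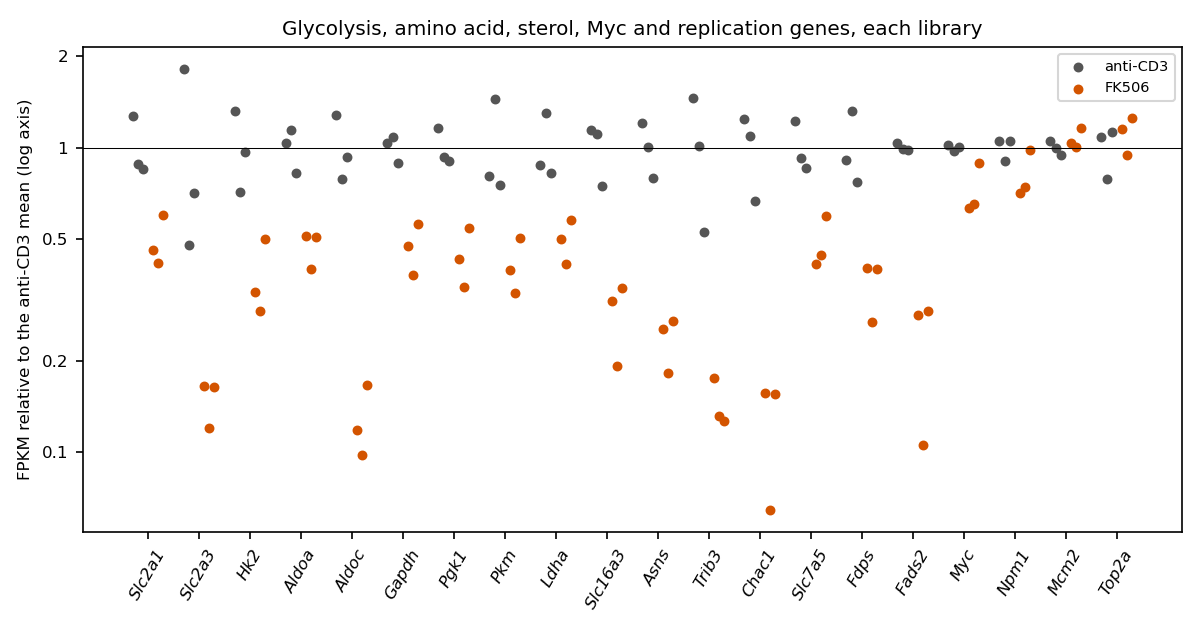
FPKM of each library divided by the mean of the 3 anti-CD3 libraries (y axis, log scale) for 20 genes (x axis), with anti-CD3 alone and FK506 in separate colours and points for replicates 1 to 3. From Slc2a1 to Fads2 the FK506 points lie below the anti-CD3 points, while Npm1, Mcm2 and Top2a overlap between the groups.

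Interferon-stimulated genes moved in both directions. Of 32 genes 5 rose and 9 fell, against 6.44% and 4.12% of all genes, with a median of 0.01. Oasl1 was at 4.34, 2.6 and 2.78 with anti-CD3 alone and 0.555, 0.527 and 0.178 with FK506 (log2 fold change -3.05, SE 0.40, adjusted p = 0.000525), and Oas3, a sensor of double-stranded RNA, at 16.7, 19.6 and 31.5 with anti-CD3 alone and 5.17, 4.36 and 5.9 with FK506 (log2 fold change -2.24, SE 0.42, adjusted p = 0.00353). Isg15, the ubiquitin-like modifier, was at 16.6, 41.5 and 29 with anti-CD3 alone and 9.05, 5.98 and 6.94 with FK506 (log2 fold change -2.10, SE 0.43, adjusted p = 0.00613). The groups of these genes did not overlap. Gbp3, a GTPase induced by interferon-gamma, rose from 9.34, 8.61 and 12.6 to 24.7, 25.4 and 21.2 (log2 fold change 1.11, SE 0.14, adjusted p = 0.000375), and Isg20, an RNA exonuclease, from 1.32, 2.16 and 3.35 to 7.61, 9.72 and 9.98 (log2 fold change 1.93, SE 0.36, adjusted p = 0.0039). Zbp1 (1.01, adjusted p = 0.00614), a sensor of nucleic acids, was under 2-fold without anti-CD3 replicate 1 (0.82) or FK506 replicate 2 (0.91). Irf1 (0.77, adjusted p = 0.00102) was under 2-fold. Without FK506 replicate 2, 5 of the 32 genes were called, 2 higher and 3 lower; Bst2 (-1.46, adjusted p = 0.0139) and Usp18 (-1.96, adjusted p = 0.0163) were among those that then missed the threshold, with adjusted p = 0.0675 and 0.0688, and Usp18 missed it without anti-CD3 replicate 2 as well (0.06).

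Genes of antigen presentation and of B cells rose in all 3 FK506 libraries. Of 15 genes of MHC class II and antigen loading 13 rose and 0 fell, with a median of 3.13, and of 18 B-cell markers 17 rose and 0 fell, with a median of 2.82, where 6.44% of all genes rose. Cd74, the invariant chain, was at 97.6, 58.8 and 49.1 with anti-CD3 alone and 977, 818 and 539 with FK506 (log2 fold change 3.37, SE 0.34, adjusted p = 0.000145), and the class II gene H2-Aa at 26.2, 15.6 and 11.5 with anti-CD3 alone and 322, 279.6 and 175 with FK506 (log2 fold change 3.73, SE 0.40, adjusted p = 0.000189). Cd79a, of the B-cell receptor, was at 15.9, 11.9 and 8.42 with anti-CD3 alone and 126, 102 and 65.7 with FK506 (log2 fold change 2.88, SE 0.27, adjusted p = 0.000114), and Ms4a1, which encodes CD20, at 2.82, 2.3 and 2.88 with anti-CD3 alone and 61.2, 53.7 and 26.1 with FK506 (log2 fold change 4.02, SE 0.33, adjusted p = 9.02e-05). In all of these FK506 replicate 3 was the lowest FK506 library and still lay above each anti-CD3 library. H2-Ea-ps, the E-alpha gene that C57BL/6 mice do not transcribe, was at 23, 10.8 and 9.53 with anti-CD3 alone and 362, 305 and 192 with FK506, above 0 in every library. Immunoglobulin genes took 0.0461%, 0.0289% and 0.0214% of the counts with anti-CD3 alone and 0.425%, 0.222% and 0.201% with FK506.

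Some markers of other cell types, at lower levels, rose as well, and others were not called. Of all genes 6.44% rose and 4.12% fell. Of 16 tested markers of macrophages, dendritic cells and neutrophils 10 rose and 1 fell, Ly6g (-4.27, adjusted p = 0.017), which was not called without anti-CD3 replicate 1 (-3.57, adjusted p = 0.0609) or FK506 replicate 2 (adjusted p = 0.0565) and stood at -9.07 without FK506 replicate 1. Their summed FPKM was 8.99, 5.83 and 5.78 with anti-CD3 alone and 29.5, 18.9 and 11.2 with FK506. Lyz2, the lysozyme gene of macrophages and neutrophils, was at 0.0257, 0.0327 and 0 with anti-CD3 alone and 5.55, 1 and 0.378 with FK506 (log2 fold change 6.34, SE 1.31, adjusted p = 0.00646). The groups of Lyz2 were apart, with FK506 replicate 1 the highest, and without it the log2 fold change was 4.61. Csf1r, the receptor gene that macrophages need, had 0 counts with anti-CD3 alone and 103, 66 and 24 with FK506, at least 62.9-fold higher. Gamma-delta T-cell markers rose in 4 of 5 genes, with Trdc at 2.18, 1.57 and 2.18 with anti-CD3 alone and 5.11, 6.51 and 5.48 with FK506 (log2 fold change 1.41, SE 0.29, adjusted p = 0.00629). Of 5 tested NK-cell markers 3 rose, Eomes, Klrc1 (2.45, adjusted p = 0.00578, or 3.19 without anti-CD3 replicate 1) and Klrb1c, which had 0 counts with anti-CD3 alone and was not called without any anti-CD3 library, FK506 replicate 1 or FK506 replicate 2 (adjusted p from 0.0522 to 0.0876). The defining NK gene Ncr1 was near 0, at 0.0295, 0 and 0 with anti-CD3 alone and 0.129, 0.0681 and 0 with FK506. Of the 2 CD8 T-cell markers 1 rose. Cd8a was at 0.103, 0.282 and 0.26 with anti-CD3 alone and 2.18, 0.868 and 0.641 with FK506 (log2 fold change 2.38, SE 0.56, adjusted p = 0.0123), and was not called without FK506 replicate 1 (1.69, adjusted p = 0.0559). The more abundant Cd8b1 was at 2.1, 4.6 and 4.88 with anti-CD3 alone and 6.85, 4.37 and 3.99 with FK506 (log2 fold change 0.28, SE 0.32, adjusted p = 0.588), and the sums of both, 2.21 to 5.14 with anti-CD3 alone and 4.63 to 9.02 with FK506, overlapped. FK506 replicate 1 was the highest library of Cd8b1, whose values under the alternatives were not examined, so no direction is given for it. Of 4 tested basophil and mast cell markers 1 rose, Cd200r3 (4.98, adjusted p = 0.00997, or 4.05 without FK506 replicate 1). Of 7 tested markers of red cells and platelets 0 were called by edgeR, with 4 at an unadjusted p under 0.05 (7774 of all 23585 genes), and 3 were called higher by DESeq2. Without FK506 replicate 3 edgeR called 1. Of 8 plasma cell markers 3 rose and 1 fell; the one that fell was Sdc1, which encodes the plasma cell surface protein CD138, at 9.2, 9.05 and 7.1 with anti-CD3 alone and 4.44, 1.93 and 2.38 with FK506 (log2 fold change -1.65, SE 0.25, adjusted p = 0.0013). The CD4+ T-cell markers summed to 2389, 3710 and 3145 with anti-CD3 alone and to 2949, 3117 and 2677 with FK506, which overlapped. When 280 immunoglobulin genes and B-cell markers, 192 of them called, were left out of the library sizes, the normalization factors and the test, 2282 genes were called, and these included 2274 of the 2299 other calls. The part of other cells in the rises of the lists above was not tested.

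**Figure D5:**
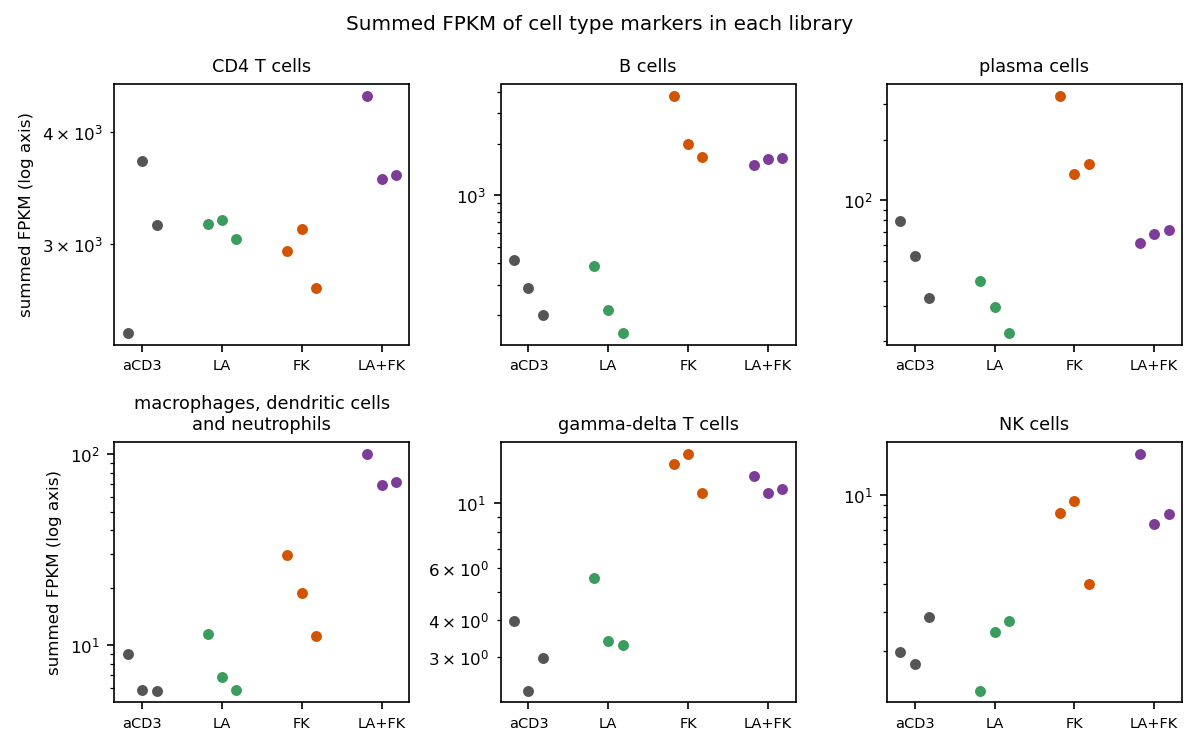
Summed FPKM (log axis) of the markers of 6 cell types in each of the 12 libraries, grouped as anti-CD3 alone (aCD3), L. acidophilus (LA), FK506 (FK) and the combination (LA+FK); points are replicates 1 to 3. The B-cell sums are 200.6 to 421.3 with anti-CD3 alone and 1675 to 3770 with FK506, while the CD4+ T-cell sums overlap.

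The largest falls of single genes were outside the immune lists. Among called genes with a mean FPKM of at least 5 in the higher group and separate groups, 383 fell and 426 rose, and 107 of the latter were immunoglobulin genes. Tgm2, transglutaminase 2, which crosslinks proteins, was at 287, 220.4 and 203 with anti-CD3 alone and 10.3, 6.66 and 17 with FK506 (log2 fold change -4.50, SE 0.38, adjusted p = 9.43e-05). Timp1, an inhibitor of matrix metalloproteinases, was at 40.6, 54.8 and 34.4 with anti-CD3 alone and 1.04, 0.967 and 2.12 with FK506 (log2 fold change -5.07, SE 0.37, adjusted p = 5.96e-05). Osr2, a zinc finger factor, was at 10.7, 17.9 and 14.4 with anti-CD3 alone and 1.09, 0.504 and 0.754 with FK506 (log2 fold change -4.29, SE 0.41, adjusted p = 0.000121). The lowest anti-CD3 library of each lay several times above the highest FK506 library. Grp, gastrin-releasing peptide, fell from 4.85, 7.02 and 4.8 to 0.287, 0.298 and 0.488 (log2 fold change -4.04, SE 0.72, adjusted p = 0.00296). P4ha2, a collagen prolyl hydroxylase (-3.87, adjusted p = 0.00314), Nupr1 (-3.84, adjusted p = 0.00244) and Kremen2 (-3.81, adjusted p = 0.00233) were also among the 10 largest falls. Without anti-CD3 replicate 1 these 3 genes were at -2.76, -2.91 and -3.16.

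The size or call of other large falls varied with the libraries used. Mmp7, a matrix metalloproteinase, was at 22.7, 2.33 and 0.549 with anti-CD3 alone and 0.0887, 0 and 0.0625 with FK506 (log2 fold change -7.36, SE 1.75, adjusted p = 0.0167), with replicate 1 far above the others. Without that library it was at -4.79 and kept its call, and it was not called without any 1 of the FK506 libraries (log2 fold change from -8.02 to -6.85, adjusted p from 0.0514 to 0.0729). Bc1, a short brain RNA, was at 20.1, 507 and 33.6 with anti-CD3 alone and 12.8, 3.83 and 2.4 with FK506 (log2 fold change -4.99, SE 1.29, adjusted p = 0.0186); without anti-CD3 replicate 2 its log2 fold change was -2.14 (adjusted p = 0.129), and it was not called without FK506 replicate 2 (0.0832) or 3 (0.0625) either. Edn1, endothelin-1, was at 3.53, 25.8 and 27.3 with anti-CD3 alone and 0.364, 0.98 and 2.78 with FK506 (log2 fold change -3.87, SE 0.98, adjusted p = 0.0176) and lost its call without FK506 replicate 1 (-3.40, adjusted p = 0.0612) or 2 (-3.67, adjusted p = 0.0797); without FK506 replicate 3 it was at -4.91.

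Among the largest rises, Ms4a4b, a membrane protein of T cells, was at 2.68, 2.15 and 3.26 with anti-CD3 alone and 131, 205 and 73.4 with FK506 (log2 fold change 5.53, SE 0.59, adjusted p = 0.000189). Hpgds, prostaglandin D synthase, was at 0.0816, 0.0287 and 0.0519 with anti-CD3 alone and 8.85, 6.4 and 3.39 with FK506 (log2 fold change 6.53, SE 0.74, adjusted p = 0.000251). The remaining large rises were mainly of B-cell and immunoglobulin genes. Jchain, which joins secreted IgM and IgA, was at 0.73, 0 and 0.104 with anti-CD3 alone and 51.3, 12.1 and 11.6 with FK506 (log2 fold change 6.27, SE 1.40, adjusted p = 0.00957), or 8.68 without anti-CD3 replicate 1 and 5.21 without FK506 replicate 1, and Cd180, a Toll-like receptor homologue of B cells, at 0.26, 0.0928 and 0.134 with anti-CD3 alone and 10.2, 10.6 and 4.07 with FK506 (log2 fold change 5.43, SE 0.54, adjusted p = 0.000134). Ighd, the constant region of IgD, rose from 0.408, 0.416 and 0.329 to 14.4, 20.03 and 10.4 (log2 fold change 5.10, SE 0.41, adjusted p = 8.37e-05), and Ighv1-37, Ighv9-4, Ighv3-8 and Iglv1 are variable segments of antibodies, whose reads can be shared among near-identical segments. A macrophage gene was also among the largest rises. Retnla, a secreted product of alternatively activated macrophages, had 0 counts in every anti-CD3 library and 672, 31 and 18 with FK506, so that most of its counts were in FK506 replicate 1, and lost its call without any anti-CD3 library or FK506 replicate 1 (adjusted p from 0.0558 to 0.103).

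The same FK506 libraries were set against those with L. acidophilus and those with the combination. These comparisons share the FK506 libraries with the one above, so they are not independent of it. Against L. acidophilus 1176 genes (4.99%) were called. Without L. acidophilus replicate 2, L. acidophilus replicate 3 or FK506 replicate 2 the count was 677, 670 or 743. Nkg7 was at 102, 94.4 and 81.1 with L. acidophilus, above FK506 (log2 fold change -3.03, SE 0.31, adjusted p = 0.000222), and Il3 at 5.31, 8.88 and 8.78 (log2 fold change -2.49, SE 0.37, adjusted p = 0.00199). Ccl3 was at 181, 89.7 and 98.1 (log2 fold change -2.99, SE 0.36, adjusted p = 0.000559), and Tgm2 at 40.3, 62.9 and 85.4 (log2 fold change -2.50, SE 0.35, adjusted p = 0.00135). FK506 was lower than either reference in each of these genes. Foxp3 and Slc2a1 were not called against L. acidophilus. Foxp3, at 24.7, 7.53 and 7.76 with L. acidophilus, was lowest in replicates 2 and 3 (log2 fold change 1.31, SE 0.40, adjusted p = 0.0707), and Slc2a1 was at 53.2, 47 and 56 (log2 fold change -0.24, SE 0.18, adjusted p = 0.486). Of the 27 glycolysis genes 1 was called lower against L. acidophilus, with a median of -0.52, of the 30 ATF4 genes 3, of the 31 cytokine genes 6, and of the 18 B-cell markers 18 were higher.

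Between the combination and FK506 alone 1754 genes (7.44%) were called, and 978 without FK506 replicate 3. Il13 was at 2.14, 2.34 and 2.92 with the combination, below FK506 (log2 fold change -4.87, SE 0.53, adjusted p = 0.000222), and Il4 at 1.85, 1.27 and 2.23 (log2 fold change -4.42, SE 0.70, adjusted p = 0.00158). Il21 was at 0.942, 1.11 and 1.04 (log2 fold change -3.44, SE 0.44, adjusted p = 0.000485). These genes were lower in every library of the combination than in every FK506 library, and 9 of the 31 cytokine genes were called lower and 0 higher. Myc was at 28.3, 24.5 and 22.6 (log2 fold change -1.50, SE 0.16, adjusted p = 0.000198) and Mcm2 at 36.6, 39.1 and 37.8 (log2 fold change -1.15, SE 0.12, adjusted p = 0.000195). Of the 34 Myc and ribosome biogenesis genes 20 were lower with the combination than with FK506, and of the 40 replication and mitosis genes 11, against 0 and 2 that fell with FK506 alone. Foxp3 and Nt5e were higher with the combination than with FK506. Foxp3 was at 108, 95.7 and 101 (log2 fold change 1.49, SE 0.40, adjusted p = 0.0223), and Nt5e at 28.7, 35.5 and 34.8 (log2 fold change 2.74, SE 0.64, adjusted p = 0.0118). Nkg7 (8.1, 8.63 and 8.08) and Il12rb2 (2.66, 2.28 and 3) were not called between the combination and FK506 (log2 fold change -0.57, SE 0.29, adjusted p = 0.196; log2 fold change -0.71, SE 0.34, adjusted p = 0.167).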

How the data were processed

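RNA-seq of polyA RNA was available for 12 libraries, 3 in each of 4 groups taken from the labels. The submitters' processing notes name bcl2fastq 2.20.0, Trimmomatic, HISAT2 2.1.0, StringTie 2.1.3b and the builds mm10 and GRCm38. The authors deposited a read count per gene, whose whole numbers may be rounded estimates from StringTie. The authors also deposited FPKM, used here for levels, and TPM, not used here; the quantile normalization that the methods describe was not visible in the FPKM totals. Columns of per-sample values that match no sample numbered 0. Reads were aligned to a C57BL/6 genome. If the cells were Balb/c, as the labels state and the methods do not, strain-specific genes may be counted low.

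Counts were tested with edgeR 4.0.16 (R 4.3.3; quasi-likelihood, TMM factors, 1 mean per group, all 12 libraries, genes above 0 in at least 3 libraries) and genes were called when they differed at least 2-fold with an adjusted p (Benjamini-Hochberg) under 0.05. The procedure was tested on simulated data with independent libraries and no shift in cell types. That test cannot show how it behaves where libraries are related or cell types shift. Total counts ran from 45416397 to 64658165 per library, and intervals were not computed beyond the floor of 3 counts. An exact permutation test of 3 against 3 libraries cannot go below p = 0.1, so none is given. Genes named are the 10 largest rises and the 10 largest falls among called genes with separate groups and a mean FPKM of at least 5, up to 5 members per gene list with a mean FPKM of at least 1 and the largest changes, the drug's targets, and the most abundant cell type markers. Further genes were chosen after their values were seen, and some list members are not reported here by name. The members and lists were chosen with earlier results of these data known. Gene lists were described by counts and medians, with no test of the list. Alternatives were DESeq2 1.42.0, limma 3.58.1 on log2 FPKM with pseudocounts of 1, 0.1 and 0.01 and after quantile normalization, other scaling factors and filters, the replicate number as a block, and each library left out. Promoter sequences and gene neighbours were read from RefSeq tables of GRCm38.p6 with Python 3.11.15.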

Additional observations from a re-analysis of the deposited data

How the results depend on the processing

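The count of 2491 genes that differed between FK506 and anti-CD3 alone, 61.0% of them higher with FK506, was 2823 with DESeq2, 2531 without TMM factors (68.2% higher, with the median of all genes shifted to 0.0886), 2055 with only the 6 libraries compared and between 2491 and 2543 with other factors and filters. It was 967 with limma on log2(FPKM + 1), 949 with limma on quantile-normalized values, 2087 with a pseudocount of 0.1 and 2587 with one of 0.01. It was 4483 without the fold threshold, 1424 at an adjusted p under 0.01 and 1641 when edgeR tested against a fold of 1.5. It lay between 1664 (without FK506 replicate 2) and 2544 (without L. acidophilus replicate 1) with 1 library left out. Against L. acidophilus the count lay between 670 and 1465, and between the combination and FK506 it lay between 978 and 1905. Without the libraries numbered 1, chosen after seeing the data, it was 2155. The cause of these differences was not tested. With 280 immunoglobulin genes and B-cell markers left out of the test, also chosen after seeing the data, it was 2282; 192 of the genes left out were among the 2491, and 2274 of the other 2299 remained called.

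Same-numbered libraries of both groups correlated at -0.114 to 0.373 over 13366 genes and differently numbered ones at -0.295 to 0.313, so not every pair passed 0.1 and the labels name nothing that the numbers share. Over all 4 groups same-numbered libraries averaged 0.216 and others -0.103, a hint from the data and not from the design, while FK506 and anti-CD3 replicates 2 correlated at -0.114. The correlated values were deviations from group means. This pulls the average of the others below 0 whenever that of same-numbered libraries is above 0, so the others are no independent reference. With the replicate block the count was 2524 over 12 libraries and 1615 over the 6 compared. Of 169 called named genes, 167 kept their call with the block over 12 libraries, where 10 further named genes were called, and 146 over 6, where Il13, Tbx21, Pkm, Ldha and Phgdh were among the 23 that did not.

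No called gene of the named set changed direction under any alternative. Of 169 such genes, between 131 (limma on log2(FPKM + 1)) and 169 kept their call. Several genes that were not called changed sign under an alternative. Ppp3ca was at 0.10 without TMM factors, 0.0075 with upper-quartile factors, 0.0036 with all detected genes, 0.083, 0.093 and 0.094 with limma at the pseudocounts of 1, 0.1 and 0.01, and -0.077 to 0.13 with 1 library left out. Ppp3r1 was at -0.041 without the libraries numbered 1 and -0.078 to 0.19 with 1 left out. Cd4 was at 0.0015 at each limma pseudocount and 0.15 after quantile normalization. Il4 was at 0.098 and 0.030 with the block over 12 and 6 libraries, 0.031 without TMM factors, 0.15, 0.16 and 0.16 with limma, 0.13 after quantile normalization, 0.60 without the libraries numbered 1 and -0.33 to 0.59 with 1 left out. Mcm2 was at 0.086 without TMM factors, 0.00014 with upper-quartile factors, 0.087, 0.088 and 0.088 with limma, 0.15 after quantile normalization, 0.062 without the libraries numbered 1 and -0.097 to 0.029 with 1 left out. Ctla4 was at 0.0038 without TMM factors and -0.59 to 0.13 with 1 left out, and Irf4 at 0.059 after quantile normalization. With 1 library left out, Egr2 ran from -0.026 to 0.20, Gzma from -0.70 to 0.016, Tnf from -0.065 to 0.19 and Top2a from -0.076 to 0.17. Genes near the floor of 3 counts in both groups cannot show a change.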

Other observations

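Transcripts of the mitochondrial genome were higher in the FK506 libraries. All 13 tested had a higher FPKM in each FK506 library than in each anti-CD3 library (32.1% of all genes had groups that did not overlap), with a median log2 fold change of 0.88, and 1 was called, CYTB, which encodes cytochrome b (log2 fold change 1.10). Without anti-CD3 replicate 1 its log2 fold change was 0.96, under the 2-fold threshold, and 0 of the 13 were called by edgeR. The number called was 2 without anti-CD3 replicate 2, FK506 replicate 2 or FK506 replicate 3, 6 without anti-CD3 replicate 3, 6 without TMM factors, 7 with limma at each pseudocount, 10 with limma after quantile normalization and 1 with DESeq2. By class of gene, 1080 protein-coding genes rose, 766 fell and 13663 were not called, where 6.44% of all genes rose and 4.12% fell. Of long noncoding RNAs 201 rose, 92 fell and 3256 were not called, and of pseudogenes 21 rose, 99 fell and 2473 were not called. Of antigen receptor variable segments 154 rose, 0 fell and 196 were not called.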
